A study of Mus musculus with 12 samples.

Results

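The data describe 9 genes whose products decide how an antigen-presenting cell and a T cell talk to each other at contact: Cd80, Cd86, Cd40, Cd83, Cd48, Cd274, Pdcd1lg2, Icosl and Cd28. They were taken by symbol, 9 of the 32285 genes counted. The rule used no measured value, but the choice was made with earlier results of these data known. Each of 12 C57BL/6J wild-type mice gave a droplet-based single-cell library of its glabrous hind paw epidermis, 3 mice for each sex on each diet (RD or HFD). All mice began their diet at 6 to 8 weeks of age and stayed on it for 10 weeks, so they were 16 to 18 weeks old: RD is regular diet with 11% fat and HFD is high-fat diet with 42% fat, which the study uses as a mouse model of painful diabetic neuropathy. The mice carried no transgene, no cell type was sorted, and no drug was given. Nothing in the labels says whether mice shared a litter or cage.

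Langerhans cells (LCs) are the resident antigen-presenting cells of the epidermis. On activation they raise CD80 and CD86, the B7 proteins that engage CD28 on T cells, and on the way to the lymph node they express the chemokine receptor CCR7. CD40 receives the signal of CD40 ligand from T cells, CD83 stabilizes CD86 and MHC class II at the surface, and CD48 is a SLAM family protein that binds CD244 and CD2. CD274 (PD-L1) and PDCD1LG2 (PD-L2) engage the inhibitory receptor PD-1, and ICOSL engages ICOS. Cd28 itself encodes the receptor of the B7 proteins, carried by T cells. The LCs share the epidermis with keratinocytes, which are far more numerous, and in mice with dendritic epidermal T cells.

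After filtering, 126375 cells of 140392 barcodes remained, and each library held between 134449247 and 194673581 unique molecular identifiers (UMIs), that is, counted molecules. Levels are given as CPM, the UMIs of a gene per 1000000 UMIs of the same cells. Between 15 and 70 barcodes were shared by any pair of libraries, at most 0.564% of the smaller one. Males gave 1337 LC-like cells (130 to 437 per mouse) and females 2122 (278 to 463). Of the male LC-like cells 643 were resting, 359 chemokine-high, 40 cycling, 16 Ccr7-positive and 279 carried keratinocyte transcripts, and of the female cells these were 1252, 483, 35, 43 and 309. The T cell-like cells numbered 222 in males and 339 in females, and the named keratinocytes 48800 and 61767. None of the 9 genes was used for clustering or naming, and "resting" is the name of all LC-like subclusters that met no other marker list. In each sex it joins subclusters with unlike leading genes and is not shown to be a single state. A female one of 393 cells had Il1b and Cxcl1, both on the chemokine-high list, among its leading genes.

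The classes were named from marker lists, so the sums of those markers describe the classes and do not check the names. The 10 LC markers together reached 72431 to 83202 CPM in male resting cells and 65729 to 72195 in female ones, against 18 to 29 and 24 to 46 in keratinocytes. The 10 T cell markers reached 4043 to 6960 CPM in male and 1783 to 2910 in female T cell-like cells. These T cell-like cells also held keratinocyte RNA: the 9 basal keratinocyte markers summed to 5232 to 10006 CPM in males and 1553 to 6587 in females. The chemokine-high cells met 7 markers of their list in males and 3, the fewest allowed, in females, and their leading genes were mostly heat shock and immediate early genes (Hspa1a, Hspa1b, Hsph1, Jun, Atf3), with Ccl2 and Ccl4 among them in males and Ccl3 and Ccl4 in females. The 10-gene list of such genes reached 17925 to 21747 CPM in male chemokine-high cells against 4164 to 5267 in resting cells. In females it was 12542 to 17967 against 4481 to 6515. These genes are known to respond to tissue dissociation, and their part in the levels of the chemokine-high cells was not tested. All male libraries were counted with an earlier software version than all female libraries, so that sex and software cannot be told apart, and the sexes were analysed separately.

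The 9 genes lie on 6 chromosomes of GRCm38. Cd80 (ENSMUSG00000075122, chr16:38455561-38496335) and Cd86 (ENSMUSG00000022901, chr16:36603869-36666081) share chromosome 16. Cd48 (ENSMUSG00000015355, chr1:171682009-171705258) and Cd28 (ENSMUSG00000026012, chr1:60716800-60773359) lie apart on chromosome 1, Cd40 (ENSMUSG00000017652) at chr2:165055627-165072948, Cd83 (ENSMUSG00000015396) at chr13:43784775-43803132 and Icosl (ENSMUSG00000000732) at chr10:78069302-78083913. Cd86 is on the minus strand and the other 8 genes are on the plus strand. The genes of both PD-1 ligands are neighbours on the plus strand of chromosome 19, Cd274 (ENSMUSG00000016496) at chr19:29367455-29388095 and Pdcd1lg2 (ENSMUSG00000016498) at chr19:29410919-29471161, with 22823 bases between them. Both were found in T cell-like cells and in female Ccr7-positive cells, whereas keratinocytes held 459 and 818 Cd274 UMIs in males and females against 2 and 20 of Pdcd1lg2. For these neighbours the 250 bases before their RefSeq starts are shown (GRCm38.p6, plus strand, chr19:29367188-29367437 and chr19:29410669-29410918), with matches to a loose form of the NF-kB site (GGG and CC with any 5 bases between them, on either strand) in capitals.
Cd274: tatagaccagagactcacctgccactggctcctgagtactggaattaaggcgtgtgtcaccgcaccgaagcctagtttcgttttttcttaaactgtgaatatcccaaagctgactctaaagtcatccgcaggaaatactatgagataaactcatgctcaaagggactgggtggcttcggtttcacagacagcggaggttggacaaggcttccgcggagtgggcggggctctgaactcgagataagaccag
Pdcd1lg2: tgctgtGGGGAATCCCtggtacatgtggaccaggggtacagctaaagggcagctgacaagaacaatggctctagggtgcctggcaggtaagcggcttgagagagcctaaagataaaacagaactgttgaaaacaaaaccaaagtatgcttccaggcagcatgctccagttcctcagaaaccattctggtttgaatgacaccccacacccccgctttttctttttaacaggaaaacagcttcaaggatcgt
The Pdcd1lg2 window holds 1 match, which reads on both strands over the same bases, and the Cd274 window holds none. Of the 5 genes with a promoter in the RefSeq table, Icosl, Cd80 and Pdcd1lg2 hold a match and Cd48 and Cd274 do not. The Cd80 window lies inside the gene span given above and the Icosl window overlaps its start, so these windows are promoters of the RefSeq starts only. Of all RefSeq promoters of the same length, 15046 of 32851 (45.8%) hold one.

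The B7 genes were expressed in LC-like cells and were low or at 0 elsewhere. Cd86 reached 357 CPM in male resting cells (95% Poisson interval 334 to 381, all 6 mice pooled) and 1666 in female resting cells (1637 to 1695). The mice ranged from 324 to 407 in males and from 1401 to 1992 in females. No Cd86 UMI was found in 222 male or 339 female T cell-like cells, which allows shares of up to 1.35% and 0.885% of cells with a UMI. Cd80, the second B7 ligand, lay at 126 CPM (112 to 141) in male and 323 (311 to 336) in female resting cells, with mice between 103 and 157 and between 189 and 420. In this assay a molecule is counted once, from its 3′ end, and no length was divided out. Whether intronic reads were counted is not given, and if they were, the structure of a gene can enter its level, which limits any comparison between genes here. With that limit, Cd86 UMIs outnumbered Cd80 UMIs in the resting cells of every mouse of both sexes. Keratinocytes held Cd86 at 0.0632 CPM in males and 0.260 in females. Per 1000 UMIs of the LC gene Cd74 this was 14.6 Cd86 UMIs in male keratinocytes against 13.4 in resting cells, and 44.2 against 74.0 in females. Cd80 was at 0.140 and 0.394 CPM in keratinocytes, and on the same scale it stood higher there than in resting cells, with 32.4 against 4.71 UMIs in males and 67.0 against 14.4 in females. The intervals and shares given here cover counting error only.

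**Figure D1:**
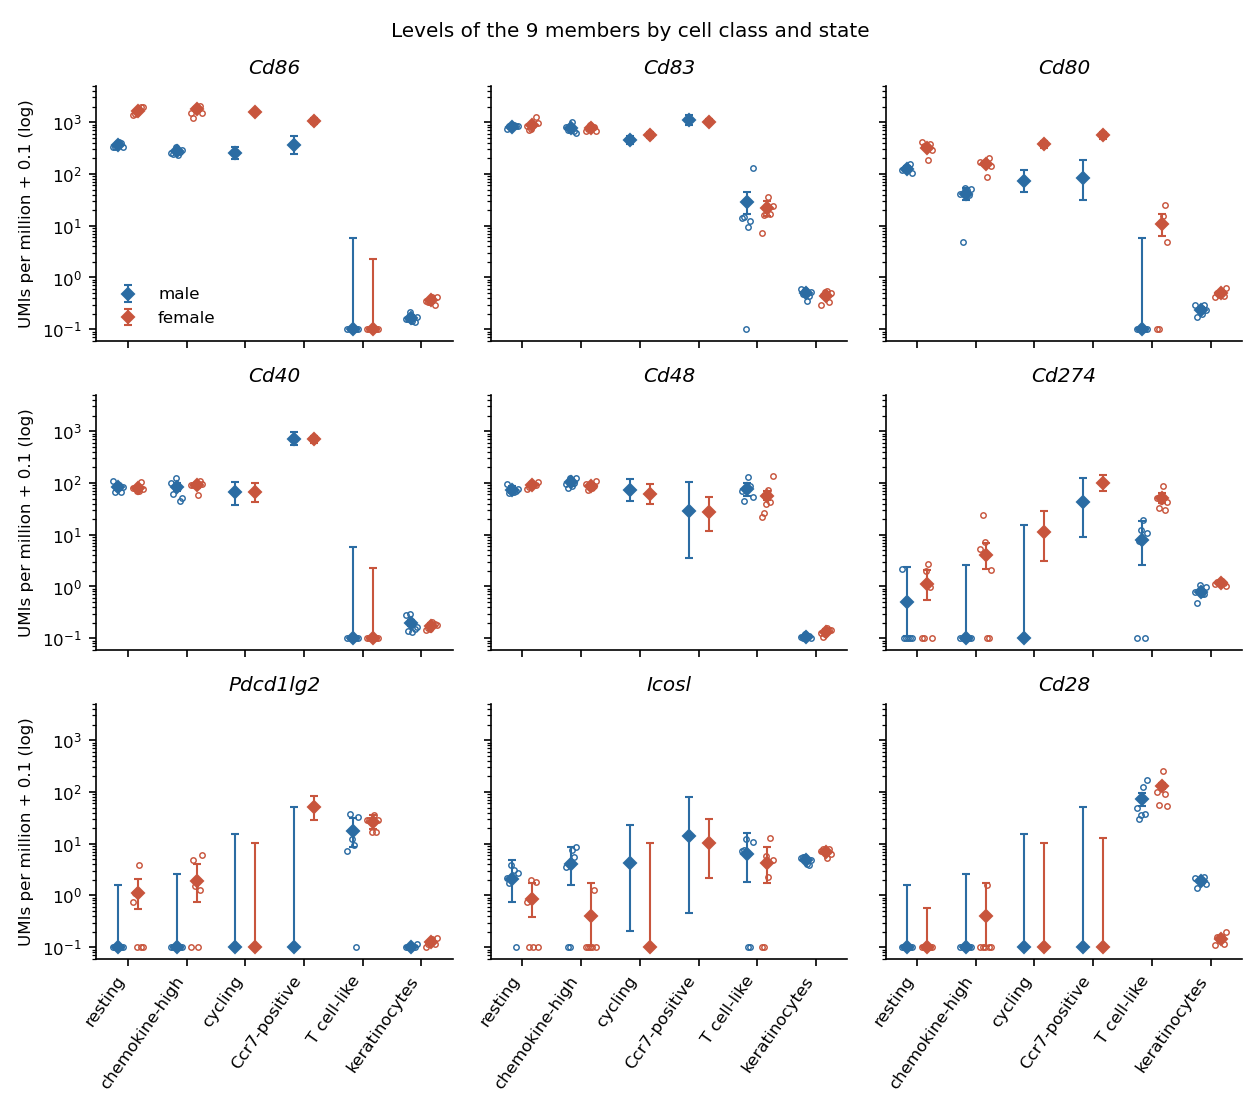
Level of each of the 9 genes in CPM (UMIs per 1000000, log axis, 0.1 added) by LC state, T cell-like cells and keratinocytes, with circles for single mice, diamonds for all mice of a sex pooled with the 95% Poisson interval, males in blue and females in red. Cd80, Cd86, Cd40 and Cd83 are high across the LC states and at or near the bottom of the axis in keratinocytes, Cd48 is in LC states and T cell-like cells, Cd28 stands out in T cell-like cells, and Icosl is low everywhere.

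Cd83 and Cd40, which mark the maturing dendritic cell, and Cd48 completed the set of LC-expressed members. Cd83 was the highest of the 9 genes in male resting cells at 825 CPM (789 to 861) and second to Cd86 in females at 891 (870 to 912). Cd40 was modest at 82.6 (71.7 to 94.7) in male and 79.2 (73.1 to 85.7) in female resting cells, and Cd48 was at 73.7 (63.4 to 85.2) and 92.1 (85.5 to 99.1). Cd40 and Cd48 overlapped in range across mice within each sex, with 66.4 to 111 against 64.2 to 96.5 in males and 69.3 to 106 against 77.2 to 106 in females. Set side by side, female resting cells held 4.67 times the male level of Cd86 and 2.57 times that of Cd80, but 0.959, 1.08 and 1.25 times that of Cd40, Cd83 and Cd48. The sexes were counted with different software versions, and no test was made across them.

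The Ccr7-positive cells, the state that LCs enter when they leave the epidermis, differed from resting cells most in Cd40 among the LC-expressed members. Pooled over mice, Cd40 reached 721 CPM (537 to 948) in 16 male cells and 692 (601 to 794) in 43 female cells. This was 8.73 times the resting level in males (95% interval of the ratio 6.29 to 11.9) and 8.74 times in females (7.42 to 10.3). A Cd40 UMI was found in 87.5% of the male Ccr7-positive cells (exact interval 61.7 to 98.4) and 81.4% of the female ones (66.6 to 91.6), against 25.5% and 33.8% of resting cells, 0 of the T cell-like cells and 0.117% and 0.0858% of keratinocytes. The median UMIs per cell were 4219 and 6129 in the Ccr7-positive cells, 3831 and 6072 in resting cells, and 10881 and 11254 in keratinocytes. With cells of at least 1000 UMIs thinned to 1000 and the others left out, the expected shares were 51.0% and 43.5% against 7.81% and 7.28%. The Cd40 UMIs came from all mice that had such cells: the male RD mice gave 5, 12 and 11 and the male HFD mice 14, 0 and 9, where the mouse with 0 had no Ccr7-positive cell, and the female RD mice gave 40, 41 and 14 and the female HFD mice 36, 61 and 12. The state is a description, since its cells were grouped from the same counts, and no member was tested between states.

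The other LC-expressed members moved less or differently between these states. Cd83 was 1.35 times the resting level in male Ccr7-positive cells (1.07 to 1.70) and 1.15 times in female ones (1.02 to 1.29). Cd80 was 1.72 times the resting level in females (1.46 to 2.02), and in males, with 6 UMIs, the ratio was 0.674 (0.246 to 1.49). The companion B7 gene did not follow: Cd86 was 0.634 times the resting level in females (0.564 to 0.709) and 1.03 times in males (0.669 to 1.52). Cd48 was lower in female Ccr7-positive cells, at 0.295 times the resting level (0.127 to 0.584), with 8 UMIs in 43 cells. In males Cd48 rested on 2 UMIs, with a ratio of 0.383 (0.0461 to 1.41). Calling cells Ccr7-positive by a Ccr7 UMI alone lowered the female Cd40 ratio to 3.95 and the male one to 5.69, and raised the female Cd48 ratio to 0.710, outside its counting interval. Leaving out putative doublets gave 5.90 for Cd40 in males.

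In the cycling LC-like cells Cd83 was the LC-expressed member furthest from the resting level in both sexes. It was 0.551 times that level in males (0.451 to 0.668) and 0.640 times in females (0.554 to 0.736). Without female HFD replicate 1, which gave 12 of the 35 female cycling cells, the female ratio was 0.380. Cd80 was 0.586 times the resting level in males (0.343 to 0.942) and 1.15 times in females (0.956 to 1.37), and Cd86 0.724 (0.551 to 0.935) and 0.960 (0.881 to 1.04). The Cd40 and Cd48 intervals of the cycling cells included the resting level in both sexes, on 16 to 24 UMIs each. Cd274 had 4 UMIs in the female cycling cells, all from HFD replicate 1.

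The chemokine-high cells had less Cd80 than the resting cells of the same mouse in 6 of 6 male and 6 of 6 female mice. The difference in log2 CPM was -1.92 ± 1.27 (SD, n = 6) in males and -1.06 ± 0.15 (SD, n = 6) in females. Male RD replicate 2 had a single Cd80 UMI in its chemokine-high cells (4.79 CPM) and gave the male extreme of -4.43, and without that mouse the male mean was -1.42. Cd86 was lower in 6 of 6 males (-0.43 ± 0.23) and in 2 of 6 females (-0.02 ± 0.26). Cd48 was higher in 5 of 6 males (0.45 ± 0.30) and in 2 of 6 females (-0.09 ± 0.24). The differences of Cd40 (-0.18 ± 0.48 and 0.15 ± 0.27) and Cd83 (-0.15 ± 0.25 and -0.22 ± 0.34) were smaller than their spread between mice in both sexes. Relative to resting cells, Cd80 was thus at 0.264 and Cd86 at 0.742 times in males, and at 0.480 and 0.986 times in females. With the members kept among the clustering genes, the Cd80 log2 difference in males was -1.97. No female cluster was then named chemokine-high, so the female values hold only for the clustering without the members.

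**Figure D2:**
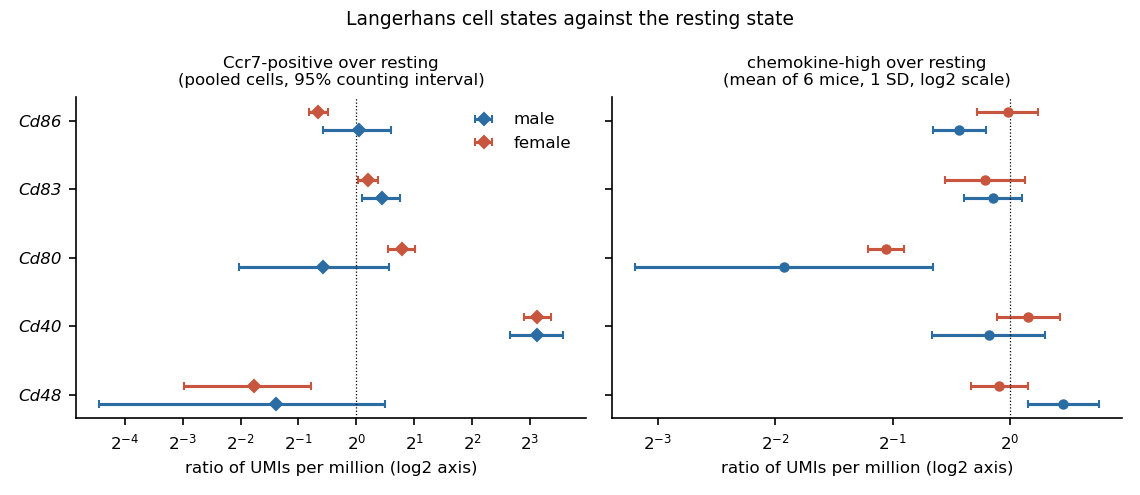
Left, level in Ccr7-positive cells over the level in resting cells for the LC-expressed members, pooled over the mice of a sex, with the 95% counting interval. Right, level in chemokine-high cells over resting cells as the mean of 6 mice with 1 SD. Cd40 stands at 8.73 in males and 8.74 in females on the left, and Cd80 lies below the resting level in both sexes on the right.

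The PD-1 ligands were low in LC-like cells outside the Ccr7-positive state. Male resting cells held 1 Cd274 UMI and no Pdcd1lg2 UMI in 643 cells, and female resting cells held 8 of each in 1252 cells (1.02 CPM, 0.440 to 2.01). Female chemokine-high cells held 13 Cd274 UMIs (3.91 CPM, 2.08 to 6.69) and 6 of Pdcd1lg2 (1.81, 0.663 to 3.93), each above the resting cells of the same mouse in 4 of 6 mice, on at most 5 UMIs per mouse. Male chemokine-high cells held neither. In female Ccr7-positive cells Cd274 reached 102 CPM (68.7 to 145) from 30 UMIs, 99.9 times the resting level (44.8 to 252), but these lay in 6 of 43 cells. Of the 30 UMIs, 16 were in 3 cells of female HFD replicate 1, 11 in a single cell of female HFD replicate 2 and 3 in 2 cells of female RD replicate 2. Pdcd1lg2 had 15 UMIs there, with a counting interval of 19.9 to 136 for its ratio to the resting level and 12 of them in 1 cell of female HFD replicate 2. The male Ccr7-positive cells held 3 Cd274 UMIs and no Pdcd1lg2 UMI, which at 70753 UMIs in all allows up to 42.4 CPM. These levels therefore rest on a few cells of a few mice.

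T cell-like cells carried both PD-1 ligands in more mice. Cd274 was found in 18.3% of female T cell-like cells (62 of 339, exact interval 14.3 to 22.8) against 1.07% of female keratinocytes, at a median of 3209 UMIs per T cell-like cell and 11254 per keratinocyte. Its level was 51.4 CPM in females (41.2 to 63.4), present in 6 of 6 mice, and 7.79 in males (2.53 to 18.2), from 5 UMIs in 4 of 6 mice. Pdcd1lg2 was at 26.3 CPM in females (19.2 to 35.2) and 17.1 in males (8.56 to 30.7), against 0.0258 and 0.00301 in keratinocytes. Both genes stood above their keratinocyte levels, although the T cell-like cells held much keratinocyte RNA.

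Cd28, the receptor of the B7 ligands, was at 71.7 CPM in male T cell-like cells (52.5 to 95.6) and 130 in female ones (114 to 149). In single mice it ranged from 29.7 to 171 and from 52.5 to 249. No Cd28 UMI was found in resting LC-like cells of either sex, 0 of 643 and 0 of 1252 cells, which allows shares of up to 0.467% and 0.240% of cells with a UMI. Such limits do not bound the share of cells that express a gene at a low level. Cd48 was present in T cell-like cells at 74.8 CPM in males (55.2 to 99.2) and 56.7 in females (46.0 to 69.2), and its range across mice overlapped that of resting cells in both sexes. In females Cd48 lay below the resting cells of the same mouse in 5 of 6 mice, and the overlap rests on an HFD mouse at 134 CPM. Cd40 gave no UMI in T cell-like cells of either sex. Cd83 was at 28.0 and 21.6 CPM, and per 1000 Cd74 UMIs this was 545 and 740 Cd83 UMIs against 30.9 and 39.6 in resting cells. The T cell-like values rest on only 33 and 50 Cd74 UMIs. Of the 18 male Cd83 UMIs, 12 came from HFD replicate 3. Cd80 gave no UMI in male and 18 UMIs in female T cell-like cells (10.5 CPM, 6.23 to 16.6), which came from 4 of 6 mice.

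Keratinocytes carried Icosl, at low levels that differed between their classes. Icosl was at 4.81 CPM in male keratinocytes (4.64 to 4.98) and 6.77 in female ones (6.59 to 6.96). In proliferating keratinocytes it reached 9.79 and 10.4, in basal ones 8.35 and 7.98, and in suprabasal or spinous ones 2.06 and 5.46. Terminally differentiated keratinocytes had 2.31 and 1.26. The suprabasal or spinous classes of the sexes are not alike. A cluster with Krt9, Il34 and Mt4 among its leading genes, called Krt9-led below, was named so in females (14654 cells, Icosl at 7.82 CPM). Its male counterpart (11781 cells, 6.30) met no marker list and is left out of the male keratinocyte values unless stated. Without that cluster the female suprabasal or spinous level of Icosl was 3.55, and with it the male one was 3.21 and that of all male keratinocytes 5.02. The order proliferating above basal above suprabasal or spinous held in 6 of 6 males and 6 of 6 females. Of single cells, 5.98% of male and 7.71% of female keratinocytes had an Icosl UMI, against 0.778% and 0.479% of resting LC-like cells. Per 1000 Cd74 UMIs, Icosl stood at 1114 in male and 1152 in female keratinocytes and at 0.0755 and 0.0340 in resting cells. The LC-like cells with keratinocyte transcripts held Icosl at 5.91 and 6.27 CPM, close to the keratinocyte level. T cell-like cells held it at 6.23 and 4.09 CPM, on 4 UMIs in males and 7 in females. Ccr7-positive cells held it at 14.1 and 10.2 CPM, on 1 and 3 UMIs.

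Cd274 and, in males, Cd28 came next in keratinocytes, and the remaining members lay at 0.00301 (Pdcd1lg2) to 0.405 CPM (Cd83) in males. Cd274 was at 0.691 CPM in male and 1.06 in female keratinocytes, with the highest pooled level in migratory keratinocytes (1.23 and 2.20). Suprabasal or spinous cells had 0.715 and 1.20, basal cells 0.795 and 0.946, and terminally differentiated cells 0.234 and 0.452. Basal cells were above terminally differentiated cells in 6 of 6 mice of each sex, but above suprabasal or spinous cells in 4 of 6 males and 1 of 6 females. Cd28 differed between the sexes there: 1195 UMIs in male keratinocytes (1.80 CPM) stood against 36 in female ones (0.0465). Male Cd28 was highest in proliferating (3.67) and basal (2.87) keratinocytes and above the suprabasal or spinous level (0.994) in 6 of 6 mice. Male keratinocytes held 34.1 Cd28 UMIs per UMI of Cd3g, a chain of the T cell receptor complex, against 0.0486 in male T cell-like cells. In females these values were 2.00 and 0.211. Sex and software version cannot be told apart in this difference.

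**Figure D3:**
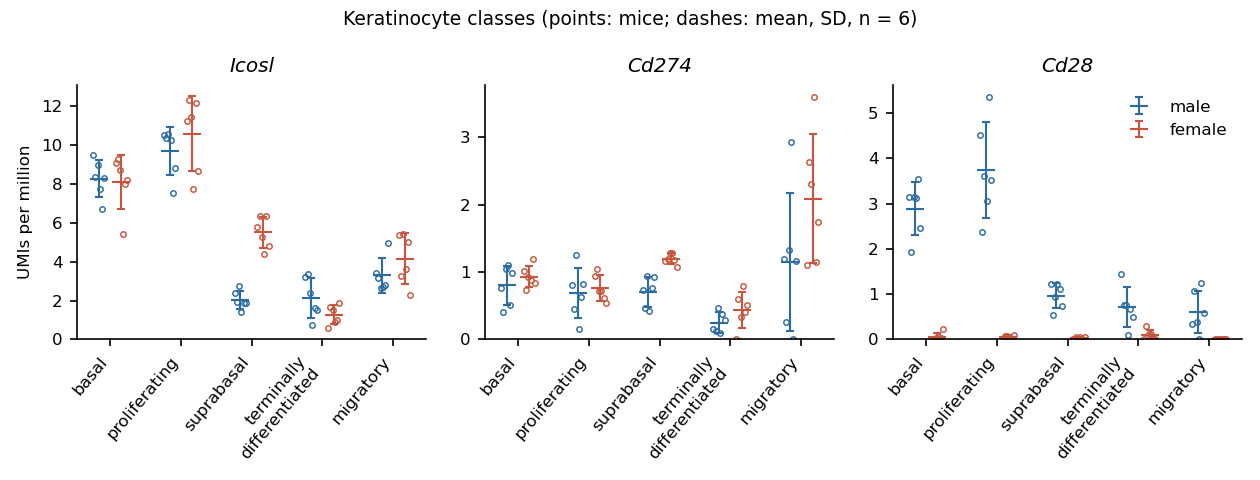
Icosl, Cd274 and Cd28 in CPM by keratinocyte class and sex. Icosl is highest in proliferating (9.79 in males, 10.4 in females) and basal keratinocytes, and Cd28 is present in male keratinocytes and near 0 in female ones.

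The diet comparison asked whether any of these genes differed between HFD and RD mice of a sex. UMIs were summed per mouse over the cells of a class and fitted across all genes with edgeR's quasi-likelihood test. A gene was called where its Benjamini-Hochberg adjusted p was below 0.05. In all LC-like cells 5 of the 9 genes passed the filter on low counts in each sex (Cd48, Cd80, Cd86, Cd40 and Cd83), and none passed the threshold, on a background of 0% of 8166 genes called in males and 0.0664% of 10542 in females. The log2 differences, HFD minus RD, lay between -0.13 for Cd40 and 0.25 for Cd83 in males, with edgeR adjusted p of at least 0.912. In females they were 0.22 for Cd48, 0.12 for Cd40 and 0.27 for Cd83, and Cd80 was 230, 245 and 308 CPM in RD and 144, 194 and 252 in HFD mice, overlapping, with a log2 difference of -0.42 and a standard error of 0.19 (edgeR adjusted p = 0.499, or 0.0228 without a low-count filter). It was -0.22 without HFD replicate 1 and -0.65 without HFD replicate 2, and no fit without a single mouse passed (adjusted p of at least 0.123). Cd274, Pdcd1lg2, Icosl and Cd28 did not pass the filter in LC-like, resting or chemokine-high cells. At an unadjusted edgeR p below 0.05 there were 0 members in males and 2 in females, against 434 of 8166 and 1025 of 10542 genes. DESeq2 called 0 members in both. In resting cells the same 5 were tested, and 0 were called in males (background 0.235%) and 1, Cd86, in females (background 1.18%).

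Cd86 was higher in the resting cells of female HFD mice. The female RD mice had 1401, 1410 and 1524 CPM and the female HFD mice 1800, 1978 and 1992. The groups did not overlap, and every HFD mouse was above every RD mouse. The means were 1445 ± 68.1 and 1923 ± 107 (SD, n = 3 each), a log2 difference of 0.40 with a standard error of 0.09 (edgeR adjusted p = 0.0355). In males the RD mice had 338, 324 and 395 and the HFD mice 407, 391 and 325, with overlap, and the log2 difference was 0.11 with a standard error of 0.14 (edgeR adjusted p = 0.898). The female call depends on single mice: the adjusted p was 0.202 without RD replicate 1, 0.203 without RD replicate 2, 0.0638 without RD replicate 3 and 0.142 without HFD replicate 3, while the log2 difference stayed between 0.37 and 0.45.

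Other values of the same female resting cells are set beside this by diet, as ranges over mice without a test. The share of all genes without overlap is not given, so a lack of overlap in these values is not read as a diet difference. The list of 10 immediate early and heat shock genes summed to 4481 to 5903 CPM in RD and 5968 to 6515 in HFD mice, without overlap. The 8 markers of other myeloid cells summed to 226 to 289 in RD and 290 to 362 in HFD mice, mostly from C1qa (134 to 187 and 183 to 254) and Adgre1 (64.1 to 68.6 and 71.8 to 103), while Ly6c2 gave no UMI and Ms4a7 gave 2 UMIs. The sum of the LC markers, to which Cd74 and the MHC class II genes give most, overlapped, with 65729 to 72195 in RD and 66093 to 68736 in HFD. Of the single LC markers Cd207, which encodes langerin, was 4479 to 5163 in RD and 5581 to 6065 in HFD mice, and Mfge8 was 6229 to 8628 and 4150 to 5629, both without overlap, while the other 8 overlapped. The part of these genes in the Cd86 difference was not tested. Over all female LC-like cells Cd86 was 960 to 1239 in RD and 1357 to 1657 in HFD mice, with no overlap, a log2 difference of 0.38 with a standard error of 0.13 and an edgeR adjusted p of 0.354.

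Cd83 and Cd80 in female resting cells did not pass the threshold. Cd83 was 697, 753 and 861 CPM in RD and 886, 956 and 1241 in HFD mice, without overlap, with a log2 difference of 0.40 and a standard error of 0.12 (edgeR adjusted p = 0.137). Without single mice the log2 difference was 0.23 to 0.51: it was 0.23 without female HFD replicate 2, the mouse at 1241 (0.327), and it passed only without female HFD replicate 1 (0.0446), with adjusted p up to 0.524. It also passed without a low-count filter (0.00934). Cd80 went the other way, with 328, 349 and 420 in RD and 189, 284 and 380 in HFD mice, which overlapped, and a log2 difference of -0.39 with a standard error of 0.18 (edgeR adjusted p = 0.406). Without female HFD replicate 2 this became -0.67 and passed (0.0185), it was -0.14 without female HFD replicate 1 (0.775), and it passed without a low-count filter (0.0475). Cd40 (69.3 to 79.9 in RD, 70.3 to 106 in HFD) and Cd48 (77.2 to 100 in RD, 90.9 to 106 in HFD) overlapped, with adjusted p of 0.833 and 0.757 in edgeR. In male resting cells the edgeR adjusted p of all 5 genes was at least 0.839, with log2 differences between -0.12 for Cd48 and 0.12 for Cd83.

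**Figure D4:**
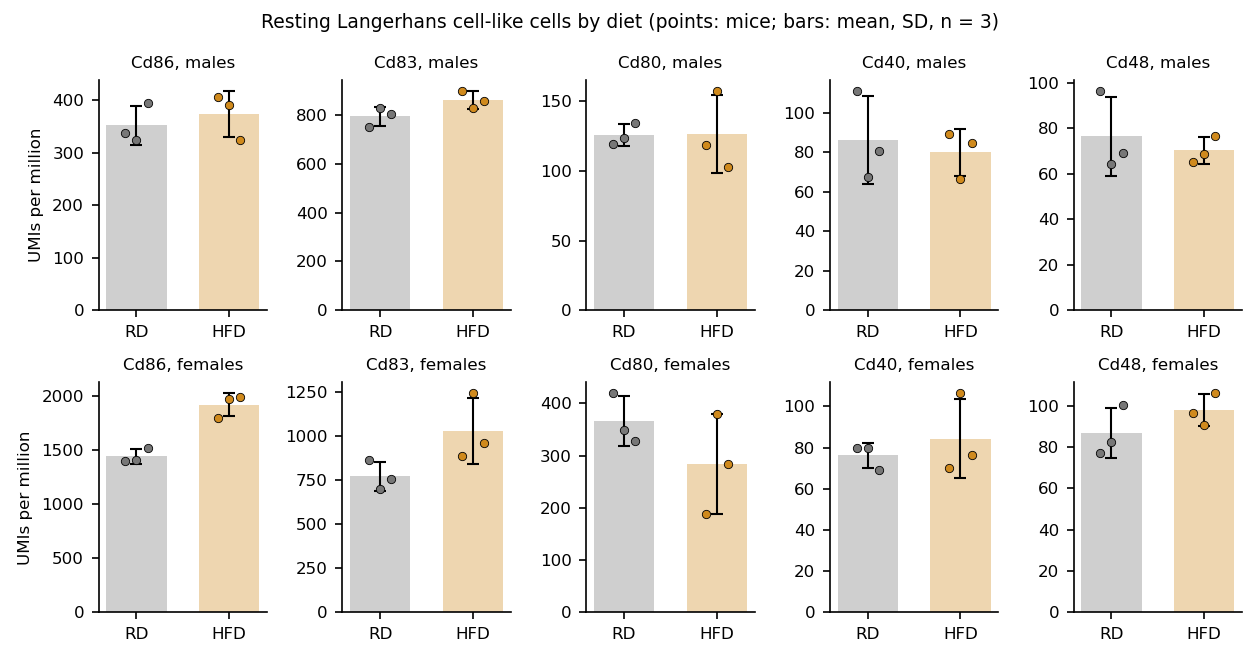
Cd86, Cd83, Cd80, Cd40 and Cd48 in CPM in resting LC-like cells by sex and diet. Bars are means of 3 mice with 1 SD and points are mice, and the female HFD mice lie above all female RD mice for Cd86 (1800 to 1992 against 1401 to 1524).

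The number of Cd86 UMIs per Cd80 UMI in resting cells was looked at after these values had been seen. In female RD mice it was 3.34, 4.04 and 4.64, and in female HFD mice 5.21, 7.0 and 9.55, without overlap. The means were 4.01 ± 0.651 and 7.25 ± 2.18 (SD, n = 3 each), with a 2-sided exact permutation p of 0.1, the smallest that 3 mice against 3 can give, and 0.2 after adjustment over both sexes. In males the means were 2.80 ± 0.162 and 3.02 ± 0.484 (exact permutation p = 0.5).

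In the chemokine-high cells 0 of 5 tested genes were called in either sex, with backgrounds of 0.262% in males and 0.0798% in females. The member with the lowest adjusted p was Cd40 in males, with 62.2, 100 and 127 CPM in RD and 44.4, 50.4 and 79.0 in HFD mice, overlapping, and a log2 difference of -0.76 with a standard error of 0.31 (edgeR adjusted p = 0.649). Cd86 in female chemokine-high cells had a log2 difference of 0.20 with a standard error of 0.15 (edgeR adjusted p = 0.755). The other log2 differences lay between -0.08 for Cd86 and 0.34 for Cd80 in males, with Cd48 and Cd83 between them, and between -0.23 for Cd80 and 0.09 for Cd48 in females, with Cd40 and Cd83 between them. The Ccr7-positive and cycling cells were too few for a fit in either sex, since some mice had 3 cells or fewer.

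In T cell-like cells no member passed the filter on low counts in males (background 1.53% of 1372 genes), and Cd28, Cd48 and Cd274 did in females, of which 0 were called (background 0.0225%). Female Cd48 was 21.8, 26.0 and 38.9 CPM in RD and 41.8, 74.3 and 134 in HFD mice, without overlap, a log2 difference of 1.38 with a standard error of 0.44 (edgeR adjusted p = 0.553). In the same cells the median UMIs per cell were 2472 to 2878 in RD and 3660 to 4735 in HFD mice, and the basal keratinocyte markers summed to 1553 to 4014 and 4701 to 6587, both without overlap. Their part in the Cd48 values was not tested. Male Cd48 overlapped, with 44.6, 69.9 and 71.9 in RD and 53.3, 86.9 and 131 in HFD mice. Cd28 in females was 55.2, 102 and 125 in RD and 52.5, 92.1 and 249 in HFD mice, with a log2 difference of 0.59 and a standard error of 0.47 (edgeR adjusted p = 0.911). In males Cd28 was 29.7, 36.0 and 48.9 in RD and 37.2, 122 and 171 in HFD mice, on 3 to 16 UMIs per mouse. Cd274 in females overlapped as well, with 32.4 to 50.8 in RD and 29.3 to 85.3 in HFD mice (edgeR adjusted p = 0.926). Pdcd1lg2 did not pass the filter, with 16.7, 29.0 and 29.2 CPM in female RD and 16.7, 28.7 and 35.0 in female HFD mice, and 6.99 to 37.2 in male RD and 0 to 32.0 in male HFD mice, on 0 to 5 UMIs per male mouse. Cd80, Cd83 and Icosl did not pass either, with at most 16 UMIs per mouse, and Cd86 and Cd40 had none.

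**Figure D5:**
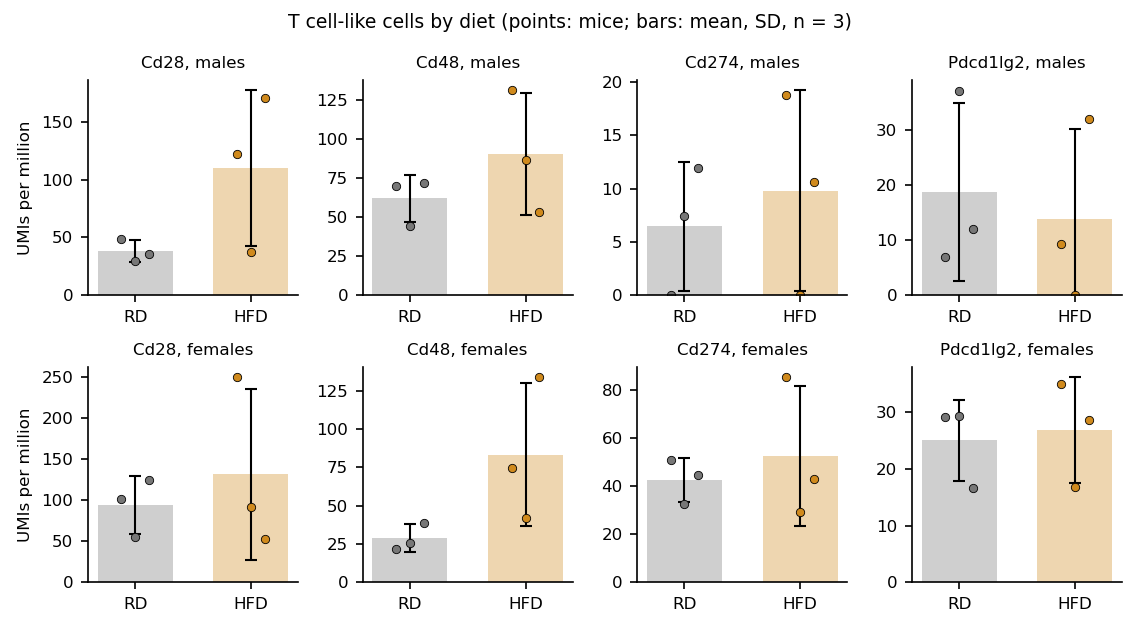
Cd28, Cd48, Cd274 and Pdcd1lg2 in CPM in T cell-like cells by sex and diet, as means of 3 mice with 1 SD and points for mice. The female HFD mice lie at 41.8 to 134 for Cd48, above the female RD mice at 21.8 to 38.9, and the groups overlap for the other genes.

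In keratinocytes 0 of 5 tested members were called in males (background 0%) and 0 of 6 in females (background 3.41%). Icosl in males was 5.26, 5.34 and 5.52 CPM in RD and 3.77, 3.96 and 4.71 in HFD mice. The groups did not overlap, and the log2 difference was -0.31 with a standard error of 0.10 (edgeR adjusted p = 0.389). In females Icosl was 6.89, 7.23 and 7.97 in RD and 5.12, 6.21 and 7.64 in HFD mice, overlapping, with a log2 difference of -0.29 and a standard error of 0.13 (edgeR adjusted p = 0.221). With the Krt9-led cluster added in males and left out in females, the log2 differences of Icosl were -0.27 and -0.31 (edgeR adjusted p = 0.407 and 0.196), and again 0 members were called. The terminally differentiated markers, whose class held Icosl at 2.31 CPM in males, summed to 10399 to 11579 CPM in male RD and 14663 to 17850 in male HFD keratinocytes. Within male basal keratinocytes alone Icosl was 8.36, 8.99 and 9.51 in RD and 6.73, 7.74 and 8.30 in HFD mice. The part of the mix of keratinocyte classes in the Icosl difference was not tested. Cd274 differed by a log2 of 0.08 in males and -0.09 in females, with standard errors of 0.31 and 0.16, and Cd28 in males by 0.11 with a standard error of 0.22. Cd40 in female keratinocytes had 5 to 7 UMIs per RD mouse and 10 to 16 per HFD mouse (0.0426 to 0.0546 and 0.0828 to 0.102 CPM), without overlap, a log2 difference of 0.80 with a standard error of 0.34 (edgeR adjusted p = 0.212). In the same keratinocytes the LC markers overlapped, with 24.2 to 29.8 CPM in RD and 26.1 to 46.0 in HFD mice, and the part of LC RNA in the Cd40 values was not tested. The log2 differences of Cd83 and Cd80 were -0.36 and 0.14 in males, and those of Cd83, Cd86 and Cd80 were 0.12, 0.15 and 0.22 in females, with overlap in each. Cd48 and Pdcd1lg2 did not pass the filter in keratinocytes of either sex, nor did Cd40 and Cd86 in males and Cd28 in females.

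The diet effects of the sexes were compared with an interaction term over all 12 mice in LC-like cells. Of 6 tested members 0 were called, on a background of 0%. The female minus male difference in log2 was -0.56 for Cd80 with a standard error of 0.30 (edgeR adjusted p = 0.931) and -0.36 for Icosl with 0.86 (0.9999). It was 0.27 for Cd40 with 0.39 (0.986), 0.26 for Cd86 with 0.27 (0.968), 0.15 for Cd48 with 0.28 and 0.05 for Cd83 with 0.27. Cd274, Pdcd1lg2 and Cd28 did not pass the filter. The same fit in resting cells alone, added after these values had been seen, called 0 of 5 tested members and 0% of 7458 genes. There the difference was 0.30 for Cd86 with a standard error of 0.16 (edgeR adjusted p = 0.798), 0.29 for Cd83 with 0.17 (0.817) and -0.41 for Cd80 with 0.31 (0.873). The call for Cd86 in female resting cells and its absence in males is thus not shown to be a difference between the sexes.

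Of the wider set of contact molecules, 25 further costimulatory and checkpoint ligands and 22 receptors were followed in the same fits. Of the ligands, Cd24a, Cd47 and Pvr were highest in resting cells, with 389, 348 and 151 CPM in males and 328, 263 and 206 in females. In Ccr7-positive cells these were Cd47 (537 and 373), Icam1 (481 and 329) and Slamf7 (353 and 170), and in T cell-like cells Cd47 (190 and 194), Icam1 (150 and 159) and Cd24a (54.5 and 21.6). CD47 gives the "do not eat me" signal to SIRPA, and ICAM1 is the adhesion partner of LFA-1. Of the receptors, resting cells had most Havcr2 (182 in males and 489 in females), Tnfrsf9 (105 and 555) and Sirpa (58.4 and 74.0). Ccr7-positive cells had most Tnfrsf9, which encodes 4-1BB (382 and 1371). Sirpa (42.4 and 84.8) and Havcr2 (28.3 and 78.1) came next there, on 3 and 2 UMIs in males and 25 and 23 in females, too few to order them. The T cell-like cells had most Icos (157 and 292), the receptor of the Icosl product, Tnfrsf9 (90.4 and 230) and Tnfrsf18 (82.6 and 111).

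In the diet fits of these lists 1 gene was called in 1 comparison, female keratinocytes, where 3.41% of all genes (604 of 17722) were called, a number that fell to 3 with the replicate block and ranged from 2 to 920 without single mice. Tnfrsf18, which encodes the costimulatory receptor GITR, was higher in female HFD keratinocytes by a log2 of 1.01 with a standard error of 0.13 (edgeR adjusted p = 0.0199), and in male keratinocytes its log2 difference was -0.17 with a standard error of 0.12 (edgeR adjusted p = 0.724). It was called in 2 of the 6 fits that left out a female mouse, with adjusted p of 0.0289 without HFD replicate 1 and 0.0136 without HFD replicate 2. It was not called without RD replicate 1 (0.0935), 2 (0.0684) or 3 (0.0801) or HFD replicate 3 (0.0663). Of the other ligands 16 passed the filter in female keratinocytes, and their median log2 difference was 0.08 against 0.01 for all 17722 genes. In female resting cells the 12 tested ligands had a median of -0.29, the 6 tested receptors -0.14 and the 5 tested members 0.15, against 0.00 for all 8130 genes, with 0, 0 and 1 called.

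As a description, each member with at least 10 CPM in a class was correlated, on the log2 scale with 1 added, with 12216 genes over 119 mouse and class points, which share libraries and classes. Points of both sexes were pooled here, so differences between sexes or software versions can enter r. Cd86 was most like Csf2rb (r = 0.993), Pik3r6 (0.993) and Rtn1 (0.987), and Cd80 like Ly75 (0.962), Irf8 (0.951) and Pik3r6 (0.951). Cd40 was most like Csf2rb2 (0.989), H2-DMb2 (0.987) and Csf2rb (0.987), Cd83 like Ctss (0.985), Ncf4 (0.981) and Cxcl2 (0.976), and Cd48 like Wipf1 (0.981), Evi2a (0.979) and Was (0.975). Cd28 was most like Il22 (0.911), Icos (0.911) and Rab37 (0.911). Cd274 was most like its chromosomal neighbour Pdcd1lg2 (0.791), then Dok2 (0.756) and Gm16337 (0.719), and Pdcd1lg2 like Tcrg-C4 (0.892), Cyth4 (0.885) and Ripor2 (0.878). Icosl was most like Igfbp3 (0.737), Shmt1 (0.731) and Mt2 (0.727).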

How the data were processed

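Per mouse, the authors deposited unnormalized whole-number UMI counts by gene and cell barcode (10x Genomics 3′ libraries, v3.1 chemistry, mm10/GRCm38). The file headers name Cell Ranger 6.1.0 for males and 7.2.0 for females, whereas the submitters' processing notes name Cell Ranger 7.2.0 and Seurat 5.0.0. Whether intronic reads were counted is not given in the sources used here.

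After the study's filters, cells had 200 (males) or 500 (females) to 6000 genes and no more than 5% mitochondrial UMIs. Each sex was clustered apart (UMIs scaled to 10000 and log-transformed, 2000 variable genes without the 9 members, 10 principal components, 20 neighbors, leidenalg 0.10.2). A cluster was named where at least 3 markers of a list were in at least 0.1 of its cells with a log2 fold of at least 0.5. The mean log2 fold over the whole list also had to be positive. Subclusters were made until at least 6 were found, and these thresholds were set after seeing the data. The clusters are not those of the paper. Doublets were not removed for the main values. As an alternative the highest scores among 30 neighbors, 0.8% per 1000 barcodes, were left out. Values are CPM, the UMIs of a gene per 1000000 UMIs of a mouse's cells in a class, with means over mice of at least 10 cells.

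Sums per mouse were compared in edgeR 4.0.16 by its quasi-likelihood test (R 4.3.3, TMM, filterByExpr, Benjamini-Hochberg over all genes, threshold 0.05), after a check on simulated data. The paper's test over single cells was not used, since cells of a mouse are not replicates. DESeq2 1.42.0, RLE factors, no low-count filter, a replicate block and leaving out each mouse were alternatives, and a diet by sex fit in resting cells alone and keratinocyte fits with a Krt9-led cluster treated the other way were added after seeing the data. The deviations of mice with the same replicate number had no constant sign over 1000 genes (r = -0.49, 0.37 and -0.45 in males, -0.56, -0.31 and 0.17 in females), so the numbers were not taken to pair mice. These values cannot exclude pairing, on which the labels are silent. Whether mice were independent beyond their libraries is not stated, and p-values measure the spread between libraries.

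In each diet comparison within a sex all 9 members are named, with a value or as not passing the filter. Of the other ligands and receptors, those past the threshold and the 3 highest per list in resting, Ccr7-positive and T cell-like cells are named, and for likeness the 3 highest correlations. The members, lists and markers were chosen with earlier results of these data known. Gene positions are those of GENCODE on GRCm38, and promoters those of RefSeq on GRCm38.p6. The paper's differential expression results were not used.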

Additional observations from a re-analysis of the deposited data

Results flagged for a closer look

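A cluster of 11781 male cells met no marker list and is left out of the male keratinocyte values unless stated. It was led by Krt9, Il34 and Mt4, and it held Icosl at 6.30 and Cd28 at 1.16 CPM, both above the level that 3 UMIs in all its cells would give. These values lie between those of basal and of suprabasal or spinous male keratinocytes for both genes (8.35 and 2.06 for Icosl, 2.87 and 0.994 for Cd28). The female cluster of 14654 cells had Hhip first and these genes also among its leading genes. It was named suprabasal or spinous keratinocytes on 5 markers, with a mean log2 fold of only 0.02 over that list. This female cluster is in the female keratinocyte values, with Icosl at 7.82 and Cd28 at 0.0434 CPM. Icosl was present in all 6 male mice at 5.37 to 7.24 CPM in the male cluster. No group of 4 or more mice entered a diet comparison, so no mouse was tested as standing apart within its diet group.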

How the results depend on the processing

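Numbers of members called did not change under most alternatives, with these exceptions: without a low-count filter 1 member was called in female LC-like cells (Cd80) and 3 in female resting cells (Cd86, Cd83 and Cd80), and leaving out each mouse gave 0 to 2 in female resting cells. Diet fits with doublets removed, mitochondrial UMIs up to 10%, a Cd207 gate or no cells with keratinocyte transcripts covered all LC-like cells only. The Cd86 call in female resting cells was not tried under these. With the replicate number as a block the counts of members called stayed at 0, or 1 in female resting cells, where the adjusted p of Cd86 was 0.0150, DESeq2 gave 0.00415 and no low-count filter 0.00411. The block changed no call of a member, and the replicate numbers were not taken to pair the mice. Of 591 recomputed member effects of diet, 49 changed sign, none of them while called, 5 gained a call and 4 lost it. The numbers of all genes called were less stable: in female keratinocytes 604 became 3 with the block, 1472 with DESeq2 and 2 to 920 without single mice. In female resting cells 96 became 167 with the block, 265 without a filter and 19 to 190 without single mice, in female LC-like cells 7 became 0, 271 and 0 to 46, and in male LC-like cells 0 became 125 with doublets removed, while male keratinocytes went from 0 to 222 with DESeq2. The cause was not tested.

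Of 265 recomputed level ratios 12 moved by more than their counting interval, and 0 of those whose interval excluded 1 changed to the other side of 1. With doublets removed the Cd40 ratio of Ccr7-positive to resting cells in males was 5.90. With a gate on Ccr7 UMIs it was 5.69 in males, and in females the ratios were 3.95 for Cd40, 0.710 for Cd48, 0.864 for Cd86 and 1.32 for Cd83. As thinned shares of cells the female ratios were 5.98 for Cd40 and 0.764 for Cd86. With the members kept among the clustering genes the female Cd80 ratio was 2.03, and no female cluster was then named chemokine-high. Without single mice the female ratios of cycling to resting cells were 0.886 to 1.28 for Cd80, 0.380 to 0.717 for Cd83 and 0.796 to 1.02 for Cd86, where the intervals of Cd80 and Cd86 include 1 and their direction changed. Cd274, Pdcd1lg2, Icosl and Cd28 had too few UMIs in LC-like cells to be tested for diet within a sex, and the 16 male Ccr7-positive cells allow only pooled values.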

Other observations

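In females the resting cells made up 60.3% to 69.4% of the LC-like cells in RD and 50.9% to 56.1% in HFD mice, without overlap. The means were 63.9% ± 4.86 and 54.3% ± 2.88 (SD, n = 3 each, exact permutation p = 0.1, the smallest possible), and the chemokine-high share 17.3% ± 6.58 and 28.0% ± 5.72 (exact permutation p = 0.2). After adjustment over the 8 tests of 4 states and both sexes, every p was at least 0.8. No raw p can fall below 0.1 in this design, so these tests say nothing about whether the shares were alike. In males the resting shares were 44.5% ± 9.66 and 48.5% ± 3.38 (exact permutation p = 0.6).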
